A study of Homo sapiens with 4 samples.

Results

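The 35 genes described here encode enzymes and regulators of cholesterol and fatty acid synthesis, and their transcripts were measured in the breast cancer lines SkBr3 and BT474, each as parental cells and as 1 lapatinib-resistant clone. Members were chosen by name from these pathways, and a probe of the array belonged to a member when its RefSeq accession mapped to that gene. Of the 35 genes, 34 had such a probe and all 34 passed a filter asking for a signal of at least 100 on at least 1 array, whereas ACLY had no probe matched by accession. ACACB passed through the SkBr3/Lap array alone. In the whole data set, 12159 of 16422 genes with a named probe passed the same filter.

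Both lines carry high levels of the receptor HER2, and lapatinib inhibits the tyrosine kinases EGFR and HER2. The parental SkBr3 and parental BT474 samples are labelled as vehicle-treated. The resistant samples, here called SkBr3/Lap and BT474/Lap, are each 1 clone selected with stepwise higher lapatinib doses, up to 1 μM, and labelled as lapatinib-treated. The effect of selection and that of drug present at harvest cannot be told apart. All cells were grown in DMEM/F12, with fetal bovine serum according to the methods. The labels number the SkBr3 clone 3 and the BT474 clone 6, and the study's text has these numbers the other way round. Total RNA of each of the 4 groups was hybridized to 1 Agilent whole genome array (n = 1 per group), so that no fold change of a clone has a replicate check, and a 2-fold difference is used below as a rule of size and not as a test. Each array had 204 to 222 probes that were spotted repeatedly and well above background, and their spots had a median SD of 0.06 to 0.07 on the log2 scale. This leaves out the spread between cultures, and it was not measured on the members, whose probes had only 1 spot each. SkBr3/Lap was hybridized on a separate slide and the other 3 samples together on another, and therefore slide and clone cannot be told apart in the SkBr3 pair. The 75th percentile of the signals was 1115 and 2074 for SkBr3 and SkBr3/Lap and 1158 and 1681 for BT474 and BT474/Lap. In whole-culture RNA, fewer cells that express a gene and less RNA of it per cell cannot be told apart.

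The cell types were checked with marker genes. The keratin genes KRT7, KRT8, KRT18 and KRT19 and EPCAM had signals of 9699 or more on all 4 arrays, while CDH1, which encodes E-cadherin, was not well above background in SkBr3 or SkBr3/Lap and reached 44710 and 56840 in BT474 and BT474/Lap. ERBB2, the gene of HER2, had signals of 238500 and 118700 in SkBr3 and SkBr3/Lap and of 256300 and 237300 in BT474 and BT474/Lap, which is 3.74-fold lower in SkBr3/Lap after scaling and 1.57-fold lower in BT474/Lap. ESR1 was not well above background in SkBr3, reached only 31.6 in SkBr3/Lap, and had signals of 1067 and 2851 in BT474 and BT474/Lap. Of 9 measured markers of fibroblasts, blood cells and endothelium, 4, 6, 2 and 4 were well above background on the SkBr3, SkBr3/Lap, BT474 and BT474/Lap arrays. Their summed unscaled signals were 596, 1818, 177 and 265. Relative to the 75th percentile of each array, the sums were 0.535, 0.877, 0.153 and 0.157. PTPRC, DCN and COL1A2 were not above background on any array, and the highest signal was that of CDH5 in SkBr3/Lap (915). The part of these markers in the results below was not tested.

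Cholesterol is built from acetyl-CoA through mevalonate, farnesyl diphosphate, squalene and lanosterol. Fatty acids are built from the same precursor by acetyl-CoA carboxylase and fatty acid synthase, and are then elongated, desaturated and activated to their CoA esters. Transcription of most of these enzymes is driven by the SREBP proteins, which SREBF1 and SREBF2 encode. SCAP escorts them from the endoplasmic reticulum to the Golgi for cleavage when sterols are low, and INSIG1 holds them back. SREBP-1c mainly serves fatty acid synthesis and SREBP-2 cholesterol synthesis. HER2-positive breast cancer cells are known for high fatty acid synthase levels.

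The bases just before the start sites of 6 members are shown because these genes stand for the patterns below: SREBF2, MVD and STARD4 were higher in SkBr3/Lap, THRSP was lower there and higher in BT474/Lap, and FADS1 and FADS2 went in opposite directions in the clones. Sequences are from RefSeq on GRCh38.p14, read 5′ to 3′ along the gene and ending at the base before the start site. Capitals mark a sterol regulatory element (TCACNCCAC), the NF-Y box CCAAT, the GC box GGGCGG or the E-box CACGTG on either strand.
SREBF2, chr22:41832955-41833104, plus strand: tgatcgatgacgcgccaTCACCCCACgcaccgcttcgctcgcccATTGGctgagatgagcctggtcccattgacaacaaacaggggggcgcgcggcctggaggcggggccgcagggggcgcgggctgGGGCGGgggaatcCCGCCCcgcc
MVD, chr16:88663092-88663241, minus strand: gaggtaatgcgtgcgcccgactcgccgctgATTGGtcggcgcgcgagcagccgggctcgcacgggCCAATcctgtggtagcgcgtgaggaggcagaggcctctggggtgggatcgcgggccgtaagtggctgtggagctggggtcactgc
STARD4, chr5:111512536-111512705, minus strand: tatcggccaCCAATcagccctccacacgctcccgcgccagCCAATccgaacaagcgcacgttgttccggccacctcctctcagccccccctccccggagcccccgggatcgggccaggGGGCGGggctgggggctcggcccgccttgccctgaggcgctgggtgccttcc
THRSP, chr11:78063711-78063860, plus strand: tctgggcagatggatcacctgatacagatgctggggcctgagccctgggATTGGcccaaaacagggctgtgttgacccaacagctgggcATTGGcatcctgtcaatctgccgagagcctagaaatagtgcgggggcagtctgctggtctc
FADS1, chr11:61817004-61817253, minus strand: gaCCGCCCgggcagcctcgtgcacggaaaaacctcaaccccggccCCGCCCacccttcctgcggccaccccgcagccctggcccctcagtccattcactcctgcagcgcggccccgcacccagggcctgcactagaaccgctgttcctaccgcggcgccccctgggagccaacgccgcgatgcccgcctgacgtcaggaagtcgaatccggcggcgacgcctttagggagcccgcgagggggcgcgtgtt
FADS2, chr11:61816154-61816403, plus strand: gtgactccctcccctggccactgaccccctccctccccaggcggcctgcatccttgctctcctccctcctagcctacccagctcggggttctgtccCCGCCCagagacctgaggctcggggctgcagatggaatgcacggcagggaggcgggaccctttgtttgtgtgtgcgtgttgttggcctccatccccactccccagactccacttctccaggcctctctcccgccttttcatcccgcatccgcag
The SREBF2 stretch held 1 sterol regulatory element followed by 1 NF-Y box and 2 GC boxes. The MVD, STARD4 and THRSP stretches each held 2 NF-Y boxes, and the FADS1 and FADS2 stretches held GC boxes but no NF-Y box. Over the full 250 bases searched, MVD had 3 NF-Y boxes and 1 GC box. The FADS2 stretch belongs to the listed start site nearer to FADS1, and the other listed site had no match to any of these motifs. For 31 of the 35 members the promoter table had an entry. An NF-Y box lay within 250 bases before a listed start site of 24 of them (77.4%), against 37.0% of all 27305 genes in the table. A GC box was found for 28 (90.3% against 46.2%), an E-box for 4 (12.9% against 7.73%) and the strict sterol regulatory element for 2, SREBF2 and ACSL1 (6.45% against 1.09%). Among the mevalonate and sterol members, 12 of 13 had an NF-Y box and 0 had the strict element. These matches describe the letters only. Genes with several start sites were searched at each of them, which gave 46 windows for the 31 members and 35116 for the 27305 genes. The members thus had more windows per gene, which can raise their shares. FADS1 and FADS2 start on opposite strands of chromosome 11, with listed start sites 599 and 800 bases apart.

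Fold changes of each clone over its parental line were taken to ask how the 2 pathways differed after resistance. In SkBr3/Lap, 6 of 34 members were above SkBr3 and 8 below it by 2-fold or more, next to 13.9% and 13.4% of all genes with a fold change. Which direction had more members depended on the setting. Median scaling gave 9 higher and 7 lower, and averaging the probes of each gene 8 and 7. Normexp background correction together with quantile normalization gave 4 and 8. Most sterol pathway enzymes were modestly higher in this clone, whereas the fatty acid genes included both the lowest values, of THRSP and ME1, and the highest, of FADS1 and FADS2, beside 5 genes within 2-fold. In BT474/Lap, the corresponding numbers were 2 of 33 members higher (THRSP and ACSS2) and 1 lower (FADS2), next to 8.84% and 5.29% of all genes. The median log2 fold change of the members was 0.54 in SkBr3/Lap, where all genes had -0.05. In BT474/Lap the members had -0.23 and all genes -0.08. Limma, with the cell lines standing in for replicates, found 0 of 34 members with a Benjamini-Hochberg adjusted p below 0.05, as for all genes (0%). It found 0 of 34 with an unadjusted p below 0.05, next to 4% of all 12159 genes.

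**Figure D1:**
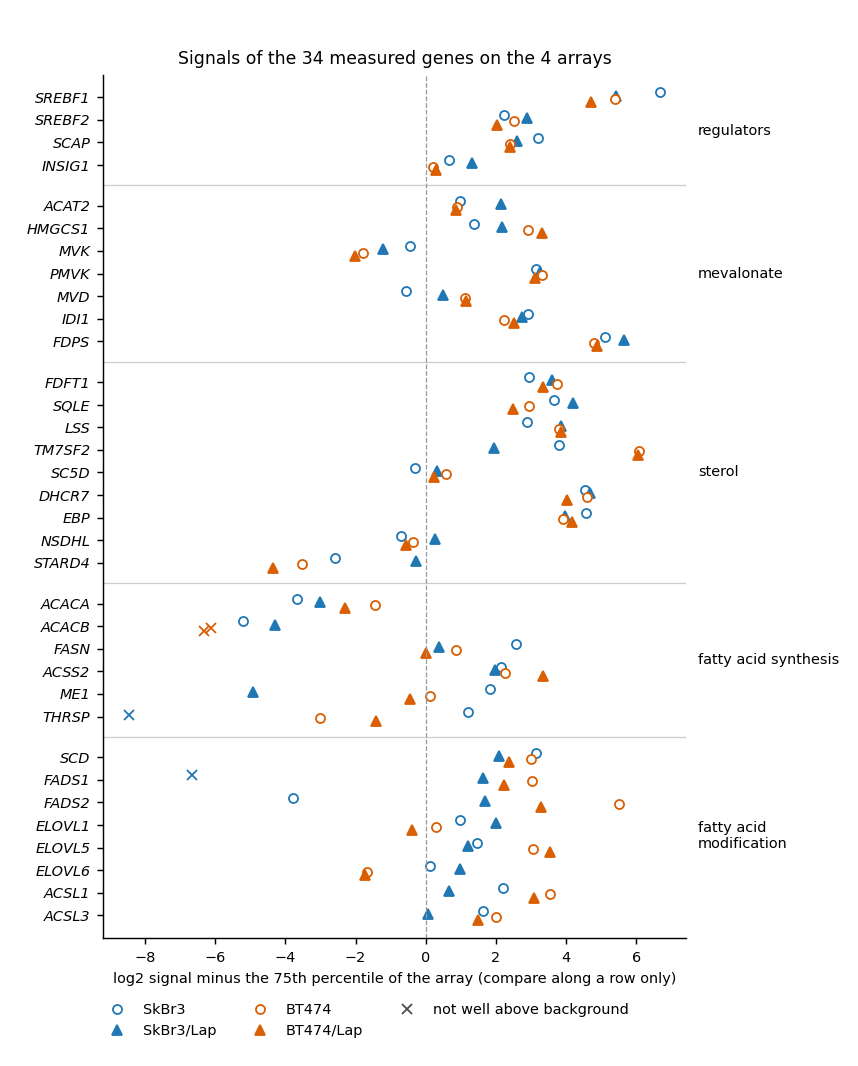
Log2 signal minus the 75th percentile of the array (x axis) for the 34 measured genes (y axis, by role), with 1 point for each of the 4 arrays: open circles are parental cells, filled triangles resistant clones, blue SkBr3, orange BT474, and crosses signals not well above background. The points of most genes lie close together, while THRSP, ME1, FADS1 and FADS2 spread widely, and only points of the same row may be compared.

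**Figure D2:**
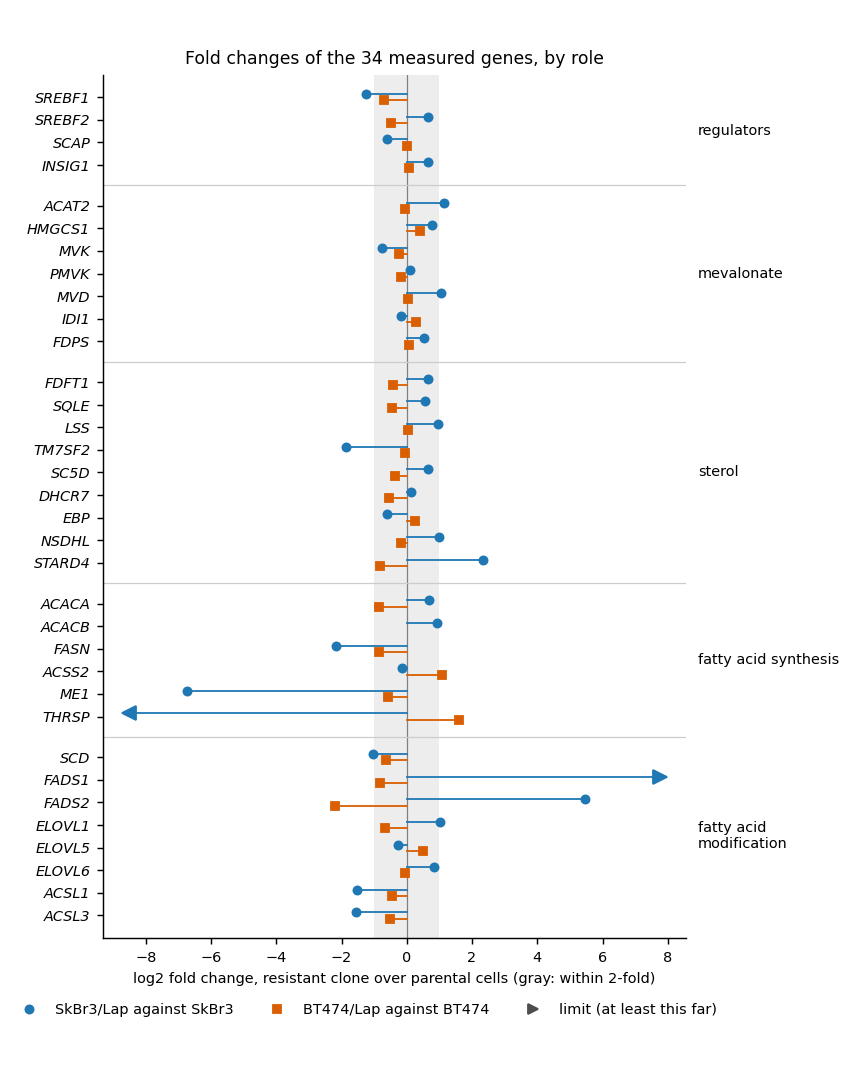
Log2 fold change of the resistant clone over its parental cells (x axis) for the same 34 genes, with circles for SkBr3/Lap and squares for BT474/Lap. The gray band holds changes within 2-fold and triangles are limits; SkBr3/Lap has 14 genes outside the band and BT474/Lap 3, and ACACB has no fold change in BT474/Lap.

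Among the regulators, SREBF1 had the largest difference. Its signal was 113400 in SkBr3 and 89300 in SkBr3/Lap, and 48410 and 43520 in the BT474 pair. Relative to the 75th percentile of its array it was lower in both clones, 2.36-fold in SkBr3/Lap and 1.61-fold in BT474/Lap, and its other probe gave log2 fold changes of -1.71 and -0.71. SREBF2 differed in direction between the clones. Its signals were 5252, 15350, 6587 and 6885 in SkBr3, SkBr3/Lap, BT474 and BT474/Lap, the order used for all signals below, and the log2 fold change was 0.65 in the SkBr3 clone and -0.47 in the BT474 clone. INSIG1 was 1.59-fold above its parental level in SkBr3/Lap and 1.06-fold above it in BT474/Lap, and SCAP was 1.51-fold below and 1.01-fold above.

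Of the 16 mevalonate and sterol genes, 12 were higher and 4 lower in SkBr3/Lap. Their median log2 fold change was 0.60, next to -0.05 for all genes of this clone. By 2-fold or more, 3 of the 16 were higher and 1 lower, where all genes had 13.9% and 13.4%. In BT474/Lap, 6 were higher and 10 lower, all within 2-fold. The median of -0.11 was close to the -0.08 of all genes, which thus also leaned toward lower values. The BT474 split became 8 higher and 8 lower under quantile normalization and under scaling over the probes above background, and 3 higher and 13 lower under median scaling, while the SkBr3 split stayed at 12 and 4 in all alternatives. STARD4, which encodes a carrier of cholesterol between membranes, had the largest difference of this group. Its signals were 184, 1717, 99.4 and 81.6. SkBr3/Lap thus stood above the other 3 arrays, with a 5.01-fold higher level than SkBr3, while BT474/Lap was 1.77-fold lower than BT474. ACAT2, the cytosolic thiolase that makes acetoacetyl-CoA, had signals of 2205, 9064, 2154 and 3023. Its level differed 1.06-fold between the parental lines, was 2.21-fold higher in SkBr3/Lap than in SkBr3 and was 1.03-fold lower in BT474/Lap than in BT474. MVD, which decarboxylates mevalonate diphosphate, had signals of 754, 2891, 2490 and 3678. It was lowest in parental SkBr3 and 2.06-fold higher in SkBr3/Lap, against a log2 fold change of 0.03 in BT474/Lap.

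TM7SF2, a sterol reductase acting after lanosterol, went the other way. Its signals were 15540, 7917, 78700 and 110400, so that it was 3.65-fold lower in SkBr3/Lap, 1.04-fold lower in BT474/Lap and 4.87-fold lower in parental SkBr3 than in parental BT474. Its second probe gave log2 fold changes of -1.37 and 0.32. LSS, which makes lanosterol, and NSDHL, which acts later on the way to cholesterol, lay just inside the 2-fold limit in SkBr3/Lap at 1.96-fold and 1.97-fold higher. The 3 dimmer LSS probes were all past that limit, with log2 fold changes of 1.08 to 1.82, and ranged from 0.35 to 1.42 in BT474/Lap, and with limma 2 of them had unadjusted p-values of 0.025 and 0.034 (adjusted p = 1). HMGCS1, the synthase of the HMG-CoA step, was 1.72-fold higher in SkBr3/Lap by its brighter probe and 3.58-fold higher by its dimmer one. The log2 fold changes of the other 9 enzymes of this group ranged from -0.76 (MVK) to 0.66 (FDFT1) in SkBr3/Lap. FDPS, FDFT1, SQLE and SC5D were between 1.44-fold and 1.58-fold higher there, PMVK and DHCR7 were higher by log2 fold changes of 0.11 and 0.14, and IDI1, EBP and MVK lower. In BT474/Lap the same 9 enzymes lay between -0.55 (DHCR7) and 0.29 (IDI1).

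The fatty acid genes held the widest differences. Of 14 with a fold change in SkBr3/Lap, 3 were higher and 6 lower by 2-fold or more (median log2 fold change -0.22). Of 13 in BT474/Lap, 2 were higher and 1 lower by that much (median -0.57). The shares of all genes were 13.9% and 13.4% in SkBr3/Lap and 8.84% and 5.29% in BT474/Lap. FASN, the fatty acid synthase that joins malonyl units into palmitate, had signals of 6633, 2713, 2098 and 1699. Its level was highest in parental SkBr3, 4.55-fold lower in SkBr3/Lap and 1.79-fold lower in BT474/Lap. Its limma estimate over both lines, a log2 fold change of -1.51 ± 0.55 (SE), had the smallest unadjusted p of the members, 0.060 (adjusted p = 1).

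ME1, the cytosolic malic enzyme that supplies NADPH for lipid synthesis, had signals of 3961, 68.4, 1263 and 1233. It was 108-fold lower in SkBr3/Lap and 1.49-fold lower in BT474/Lap. Its second probe, with signals of 1179, 3.77, 240 and 325, was not well above background in SkBr3/Lap and lay there below SkBr3 by at least 165-fold. THRSP, a small protein of lipogenic tissues that promotes fatty acid synthesis, had signals of 2589, 5.96, 143 and 625. In SkBr3/Lap it was not well above background and lay below SkBr3 by at least 362-fold, whereas in BT474/Lap it was 3.02-fold higher than in BT474. The size of the SkBr3/Lap differences depended on the processing. Normexp with quantile normalization gave log2 fold changes of -5.60 for THRSP in place of -8.50 and -5.08 for ME1 in place of -6.75. With 16 added to the signal they were -7.36 and -6.44. Which step of the normexp alternative mattered was not tested. ACSS2, which makes acetyl-CoA from acetate, was the only other member at least 2-fold higher in BT474/Lap. Its signals were 4884, 8121, 5513 and 16950, with a 1.12-fold lower level in SkBr3/Lap and a 2.12-fold higher one in BT474/Lap, and its second probe gave 0.44 on the log2 scale in BT474/Lap.

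The carboxylase genes ACACA and ACACB had low signals. ACACA, at 86.7, 259, 426 and 340, was 1.61-fold above SkBr3 in SkBr3/Lap and 1.82-fold below BT474 in BT474/Lap, and its second probe gave log2 fold changes of -0.02 and -0.43. ACACB was 1.90-fold higher in SkBr3/Lap, and in BT474 and BT474/Lap it was not well above background.

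Among the desaturases, FADS1 and FADS2, which insert double bonds into polyunsaturated fatty acids, differed most. FADS1 signals were 11.1, 6444, 9518 and 7826. Parental SkBr3 was thus the only array where FADS1 was not well above background, SkBr3/Lap was at least 216-fold higher than SkBr3, and BT474/Lap was 1.76-fold lower than BT474. The second FADS1 probe, not well above background in SkBr3 and at 5278 in SkBr3/Lap, gave at least 177-fold. FADS2 signals were 81.4, 6672, 52290 and 16390, 44.1-fold higher in SkBr3/Lap and 4.63-fold lower in BT474/Lap. Its second probe was dim, with signals of 9.70, 74.4, 370 and 131, and gave at least 2.50-fold higher and 4.11-fold lower. With normexp the SkBr3/Lap log2 fold changes were 5.85 for FADS1 in place of 7.76 and 4.63 for FADS2 in place of 5.46, and the mean over both probes gave 3.39 for FADS2. For this pair the clones lay closer to each other than the parental lines did. The log2 difference of SkBr3 from BT474 was -9.27 for FADS2 in the parental cells and -1.60 in the clones, and for FADS1 it was -9.16 or further and -0.58. SCD, the main desaturase of saturated fatty acids, had signals of 9833, 8875, 9239 and 8628. The unscaled signals lay close together. Relative to the 75th percentile of each array, which was higher for the clones, the level was 2.06-fold lower in SkBr3/Lap and 1.55-fold lower in BT474/Lap, and its 3 probes ranged from -1.04 to -0.86 and from -1.10 to -0.56 on the log2 scale.

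The elongases and synthetases differed less. ELOVL1, an elongase of very long chains, had signals of 2172, 8222, 1421 and 1288. It was 2.03-fold higher in SkBr3/Lap, but 1.60-fold lower in BT474/Lap, and its SkBr3/Lap difference fell below 2-fold under some alternatives. ELOVL6, which extends palmitate, was 1.79-fold higher in SkBr3/Lap, and ELOVL5, an elongase of polyunsaturated chains, was within 1.40-fold in both clones by its brighter probe, with a log2 fold change of 0.93 in BT474/Lap by the other. ACSL1 and ACSL3 activate long chains to their CoA esters. ACSL1 had signals of 5127, 3278, 13380 and 14210 and was 2.91-fold lower in SkBr3/Lap and 1.37-fold lower in BT474/Lap. ACSL3, at 3470, 2185, 4592 and 4688, was 2.95-fold lower and 1.42-fold lower.

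The clones were then set side by side over the 33 members with a fold change in both lines. Of these, 5 were higher in both clones, 8 lower in both, 14 higher in SkBr3/Lap and lower in BT474/Lap, and 6 the reverse. Over all genes these classes held 19.1%, 29.9%, 27.5% and 23.4%. The member counts became 1, 9, 18 and 5 under median scaling and 7, 7, 12 and 7 with the percentile over probes above background. SREBF1, FASN, ME1, SCD, ACSL1 and ACSL3 were among those lower in both, although the second ACSL3 probe gave a log2 fold change of 0.15 in BT474/Lap. The Pearson r of the fold changes was -0.49 and the Spearman rho -0.13 across genes, which are not independent replicates, against 0.09 and -0.01 over all 11463 genes. Among the 31 members well above background on all 4 arrays, r was -0.24 and rho 0.03. The size of the log2 fold change was larger in SkBr3/Lap for 27 of 33 members, with a median size of 0.84 against 0.45, and 61.3% of all genes also differed more in SkBr3/Lap.

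**Figure D3:**
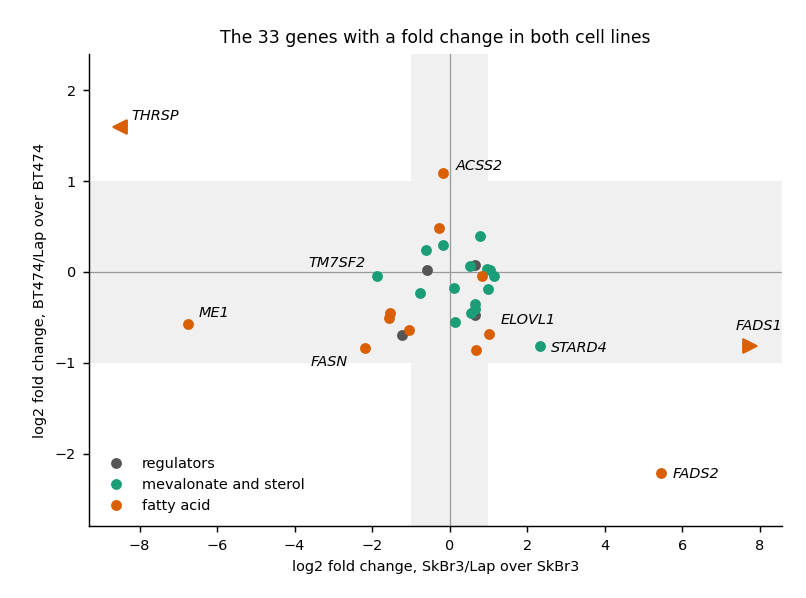
Log2 fold change in SkBr3/Lap (x axis) against that in BT474/Lap (y axis) for 33 genes, with 1 point per gene and triangles for limits; gray bands mark changes within 2-fold. Most mevalonate and sterol genes lie near the center, while STARD4, ACAT2, MVD and TM7SF2 lie past 2-fold in SkBr3/Lap. THRSP, FADS1 and FADS2 lie far out in the quadrants of opposite direction.

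The parental lines were compared as well. Compared with parental BT474, parental SkBr3 had 6 of 34 members higher and 8 lower by 2-fold or more, next to 19% and 19.4% of all genes, shares near those of the members. The median log2 difference was 0.02 for the members and 0.02 for all genes. THRSP was 18.9-fold higher in SkBr3, ELOVL6 3.50-fold, FASN 3.29-fold, ME1 3.26-fold, MVK 2.52-fold and SREBF1 2.43-fold. FADS2 was 618-fold lower, FADS1 at least 572-fold, TM7SF2 4.87-fold, ACACA 4.73-fold, MVD 3.18-fold, ELOVL5 2.98-fold, HMGCS1 2.90-fold and ACSL1 2.51-fold. This comparison and that of SkBr3/Lap share the parental SkBr3 array, so that a high or low value there enters both.

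The genes next to FADS1 and FADS2 were looked at after the values of this pair were seen. FADS1 and FADS2 lie side by side, followed by FADS3, RAB3IL1 and BEST1. FADS3, a related desaturase gene, had signals of 167, 4273, 424 and 717, and RAB3IL1 had signals of 77.9, 1203, 391 and 222. Both were higher in SkBr3/Lap, with log2 fold changes of 3.78 and 3.05, and went apart in BT474/Lap with 0.22 and -1.36. BEST1, with signals of 3.46, 25.0, 103 and 55.7, was above background on all arrays but that of parental SkBr3. On the other side, FEN1 and TMEM258 had log2 fold changes of 0.10 and -0.19 in SkBr3/Lap, and MYRF, the next gene, -1.56. For THRSP, the neighbors INTS4, NDUFC2 and ALG8 had log2 fold changes of -0.56, -0.74 and -0.23 in SkBr3/Lap, and for ME1 the neighbors PGM3 and RWDD2A had -0.51 and -1.06.

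**Figure D4:**
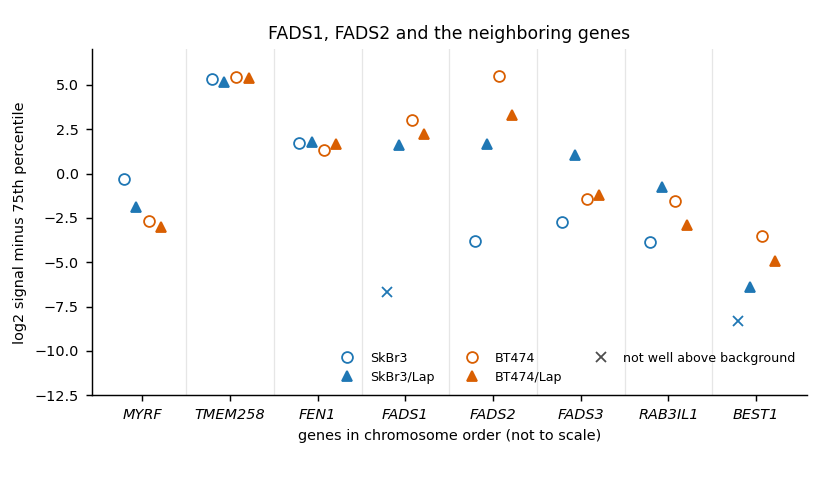
Log2 signal minus the 75th percentile of the array (y axis) for FADS1, FADS2 and 6 neighboring genes in chromosome order (x axis, not to scale), with symbols as in the plot of signals by gene. From FADS1 to BEST1 the parental SkBr3 point is the lowest of each gene, and TMEM258 and FEN1 have nearly equal points.

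Other genes of lipid metabolism were taken from a list of 62, of which 53 passed the filter. In SkBr3/Lap, 11 of 50 with a fold change were higher and 5 lower by 2-fold or more, and in BT474/Lap 2 and 6 of 50. The shares of all genes were 13.9% and 13.4%, and 8.84% and 5.29%. LPL, ACSL4 and ELOVL3 passed the filter through the SkBr3/Lap array alone. They are counted as higher there, a direction that the filter favored for them. Fatty acid handling genes again held the widest differences. SCD5, a second desaturase of saturated fatty acids, had signals of 3.35, 5464, 1212 and 1398 and was at least 184-fold higher in SkBr3/Lap. LPL, the lipase that frees fatty acids from lipoproteins, had signals of 3.27, 2053 and 43.3 and was not well above background in BT474/Lap. SkBr3/Lap was at least 68.9-fold above SkBr3, and BT474/Lap lay below BT474 by at least 4.29-fold. FABP5, a fatty acid binding protein, had signals of 662, 18560, 2700 and 1013, 15.1-fold higher and 3.87-fold lower. As with FADS1 and FADS2, the higher SkBr3/Lap level of FABP5 stood beside a lower one in BT474/Lap. The lipid droplet coat gene PLIN2 was 6.13-fold higher in SkBr3/Lap, DGAT2, which makes triglyceride, 5.42-fold, and SOAT1, which esterifies cholesterol, 4.06-fold. LIPE, the hormone-sensitive lipase, had signals of 1598, 69.2, 72.8 and 122 and was 43.0-fold lower in SkBr3/Lap, and DGAT1 was 4.49-fold lower. ACSL4, a synthetase for arachidonic acid, was 11.6-fold higher in SkBr3/Lap and at least 2.38-fold higher in BT474/Lap, and PPARA, a transcription factor of fatty acid oxidation, was 3.21-fold higher in the first and had a limit of 3.59 on the log2 scale in the second. A second PPARA probe gave a limit of 2.28 in BT474/Lap, and the other was not well above background on the 2 arrays of this line. The probes of MLXIPL, a listed regulator, differed. Its brightest probe had a log2 fold change of -0.18 in SkBr3/Lap, whereas the dimmer ones had -2.94 and -2.74. In BT474/Lap the dimmer ones had 0.07 and 0.14.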

How the data were processed

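Total RNA of 4 samples was hybridized to Agilent Human Whole Genome 4 × 44 K arrays. The authors deposited spot intensities with the background subtracted by Feature Extraction (processed signals), for which the file headers give version 10.1.1.1 and a single Cy3 channel; the methods name another version, Cy3 or Cy5 and LOWESS. A log2 table that they deposited as well served as an alternative. The number of arrays limits the precision. Log2 signals of the 43376 spots were averaged for 41000 probes, and the 75th percentile of each array was subtracted. RefSeq accessions named 23680 probes, and 25927 probes passed the filter (a signal of at least 100 on at least 1 array). Of several kept probes of a gene, the one with the highest mean stood for it. Well above background means that the software marked 50% or more of the spots of a probe that way. A dimmer signal was raised to the lowest marked signal of the array (13.3 to 16.0), which gives a limit; no fold is given when both signals of a pair were dim. No spot was saturated.

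Limma 3.58.1 in R 4.3.3 was fitted to all kept probes with a term for cell line, which leaves 1 residual degree of freedom, and p-values were adjusted by Benjamini-Hochberg, so that p-values measure agreement of the 2 lines only. The script was tested on simulated data. Other steps used Python 3.11.15, numpy 2.4.6, pandas 2.3.3 and matplotlib 3.10.9. Promoters were those of the RefSeq table, and ACAT2, SQLE, FASN and FDFT1 had no entry. Gene names and neighbor order came from RefSeq (GRCh38.p14), and the file headers name another build, so positions are given only for the printed promoter stretches and start sites, on GRCh38.p14. The members and lists were chosen with earlier results of these data known. Signals are given in full for members at least 2-fold different in 1 clone or opposed by 1.5-fold in each. Other lipid genes are named when their brightest probe was at least 4-fold different in 1 clone or 2-fold in both. FADS3 and other neighbors, ELOVL3, MLXIPL, and members given by fold alone, were named after their values were seen. Alternatives were outlier spots left out, other percentile and median scaling, quantile normalization, normexp (offset 50) with quantile normalization, the deposited table, 16 added to the signal, other filters, measured values in place of limits, the mean over probes of a gene, thresholds of 3-fold and 1.5-fold, and limma with no cell line term or with slide as that term.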

Additional observations from a re-analysis of the deposited data

Results flagged for a closer look

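For 6 members the clones went in opposite directions by at least 1.5-fold each, SkBr3/Lap against SkBr3 and BT474/Lap against BT474. The log2 fold changes were 2.32 and -0.82 for STARD4, 0.68 and -0.86 for ACACA, -8.50 (a limit) and 1.59 for THRSP, 7.76 (a limit) and -0.82 for FADS1, 5.46 and -2.21 for FADS2, and 1.025 and -0.68 for ELOVL1. With 1 array per group these differences between the cell lines were not tested. For ACACA the second probe gave -0.02 in SkBr3/Lap, so that its opposite direction was not seen by both probes.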

How the results depend on the processing

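Of the 17 member changes of at least 2-fold (14 in SkBr3/Lap, 3 in BT474/Lap), all kept their sign under every alternative that gave a value, and 13 stayed at least 2-fold; MVD, SCD, ELOVL1 and ACSS2 dropped below 2-fold under at least 1 alternative. A 3-fold threshold gave 3 members higher and 4 lower in SkBr3/Lap (8.36% and 6.72% of all genes) and 1 higher and 1 lower in BT474/Lap (4.84% and 2.23%). A 1.5-fold threshold gave 16 higher and 11 lower in SkBr3/Lap (22.7% and 24.3% of all genes) and 2 higher and 8 lower in BT474/Lap (15.7% and 15.3%). Median scaling moved the median of all genes in SkBr3/Lap from -0.05 to 0.11, that in BT474/Lap from -0.08 to -0.29, and with them the share of higher genes among those at least 2-fold different from 50.9% to 60.4% and from 62.6% to 45.8%. The member medians then were 0.70 (0.59 above that of all genes, as in the values reported) and -0.44, with 1 member higher and 5 lower in BT474/Lap. The SkBr3/Lap median was 0.32 with normexp and 0.43 with the mean over probes, and the BT474/Lap median -0.12 with the percentile over probes above background. Members at least 2-fold higher in BT474/Lap numbered 1 when probes had to be above background on all arrays or were averaged, and quantile normalization gave 3 lower. In limma, 1 member, FASN, had an unadjusted p below 0.05 with median scaling, normexp, 16 added, no filter, the geometric mean filter or probes above background on all arrays; the adjusted counts stayed 0. The cause of these shifts was not tested. No replicate could be left out, as each group has 1 array, and the pairing of each clone with its parental line is the cell line term of the limma fit. Dim signals limit THRSP, FADS1 and ACACB.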
